A study of Arabidopsis thaliana with 23 samples.

Results

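The genotype by salt interaction asks, for each nuclear gene of Arabidopsis thaliana, whether the change in mRNA after salt treatment differed between the sos2-2 mutant and the wild type. It was computed on all 11 mRNA libraries of the 23 libraries in the series, as the log2 salt change in sos2-2 minus the log2 salt change in wild type, after transcripts had been summed to genes and the nuclear genes of each library rescaled to a common total. Seedlings of both genotypes, whole and 10 days old after 2 days in the cold, had grown on MS medium with sucrose at 22 °C. The 4 groups were wild type on MS (WT_MS, 3 libraries), wild type given 100 mM NaCl in liquid MS over 12 hours (WT_100N, 3 libraries), sos2-2 on MS (sos2-2_MS, 2 libraries) and sos2-2 after the same salt treatment (sos2-2_100N, 3 libraries). The design text names the wild type gl1, a line known for leaves without hairs, and the labels do not say whether the mutant carries gl1 too. Nor do they state that seedlings of the MS groups went into liquid, so salt here means the whole treatment, in which NaCl and the transfer cannot be told apart. Whole seedlings were measured, so more or fewer cells of a type cannot be told apart from more or less RNA per cell.

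SOS2 is a protein kinase of the salt overly sensitive pathway. When sodium enters a root cell, a calcium signal is sensed by SOS3, which binds and activates SOS2, and SOS2 then phosphorylates SOS1, a sodium/proton exchanger that exports sodium across the plasma membrane. Plants without a working SOS2 are highly sensitive to sodium and stop growing at salt levels that the wild type tolerates. The series title pairs SOS2 with SERRATE (SE), a zinc-finger protein of miRNA processing.

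SOS2 (AT5G35410, chromosome 5, 13634399 to 13638375, TAIR10.1) was expressed at a low level in every library. SOS2 stood at 3.51, 3.21 and 3.90 nuclear TPM in the wild type on MS and at 3.53, 5.05 and 5.36 in NaCl. Mutant libraries held SOS2 at 4.58 and 4.85 on MS and at 4.26, 3.09 and 2.50 in NaCl. The salt-treated mutant overlapped both wild-type groups, and the mutant on MS lay within the range of salt-treated wild type. Its interaction was -0.74 (SE 0.31, limma adjusted p = 0.281), so it was not called. Since the change in the sos2-2 allele is not described in the labels, the SOS2 level is no test of genotype. SE (AT2G27100, chromosome 2, 11572397 to 11576658) stood between 42.6 and 64.3 nuclear TPM in all 11 libraries, with an interaction of 0.11 (SE 0.23, limma adjusted p = 0.848).

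Nuclear TPM stands for TPM, a length-adjusted share of transcripts, rescaled over nuclear genes alone. Plastid transcripts took 65.4 to 79.3% of the deposited TPM and nuclear genes 19.9 to 33.3%, so each library was multiplied by a factor of 3.01 to 5.04. TPM keeps no depth, and the depth of the libraries is unknown. WT_100N replicate 1 stood apart from the others of its group. It lay 0.354 (SD across genes, log2) from its group mean, against 0.215 and 0.267 for the other WT_100N libraries and 0.188 to 0.262 in the other groups. Across genes its values, relative to the mean of all libraries, had a Spearman correlation of -0.313 with the purine share of the transcript, against 0.191 and 0.342 in the other WT_100N libraries, as a description over genes that are not independent. Negative values were not limited to this library. The correlation was -0.254, -0.387 and -0.093 in WT_MS, 0.187 and 0.240 in sos2-2_MS, and 0.241, -0.181 and 0.026 in sos2-2_100N.

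Over all 11 libraries, most genes called for a different salt response had a positive interaction, but this balance turned with a single library. Of 16369 nuclear genes tested, 113 had a positive interaction at a Benjamini-Hochberg adjusted p under 0.05 in limma, which is 0.690% of the genes tested. A negative interaction was called for 9 genes, or 0.0550%. Without WT_100N replicate 1 lower genes outnumbered higher ones, with 589 higher and 986 lower, and array weights, which count libraries far from their group less, gave 565 higher and 876 lower. Over all tested genes the median interaction was -0.01, and 49.1% of the genes had a value above 0. The 113 genes had a median interaction of 2.04 (range 0.93 to 5.56), and in 58 of them it was above 2. Genes were tested at a mean of at least 1 deposited TPM over all libraries, and 31 of the 113 had a mean under 1 over the 8 libraries outside the salt-treated mutant. Of the 16369 tested genes 395 entered the test only through the salt-treated mutant, and these 31 are those among them called higher. Entry in this way required a higher mean in that group than in the other libraries, though not a called interaction. The p-values of the 31 are given as descriptions. The other 82 of the 113 genes, with a median interaction of 1.85, and the 9 lower genes stayed at or above 1 with any 1 group left out. Separate cultures are not mentioned for the replicates, so the p-values reflect library-to-library spread, which may be technical.

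A value above 0 can come from a stronger rise in sos2-2 or from a weaker fall, and over all 11 libraries most of the 113 were rises. In wild type, salt raised 1050 of all tested genes (6.41%) and lowered 559 (3.41%), and in sos2-2 it raised 985 (6.02%) and lowered 441 (2.69%). The 113 include the 31 genes that passed the filter only through the salt-treated mutant. A high level in that group was a condition of their entry, so their rises are descriptions, and they are counted with the rest below. Of the 113 genes, 102 rose with salt in sos2-2 and none fell there. Among these 102, 89 had no salt call in wild type, 8 rose in wild type too, and 5 fell in wild type. The other 11 fell in wild type and had no salt call in sos2-2. By the signs of the fitted changes alone, 49 were larger rises, 63 went up in sos2-2 and down in wild type, and 1, CYP735A2, fell less in sos2-2 than in wild type. The wild-type change was small for many of them: in 68 of the 113 it lay within 0.5 of 0 on the log2 scale. The median salt change of the 113 was -0.12 in wild type and 2.01 in sos2-2, against 0.08 and 0.05 over all tested genes.

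**Figure D1:**
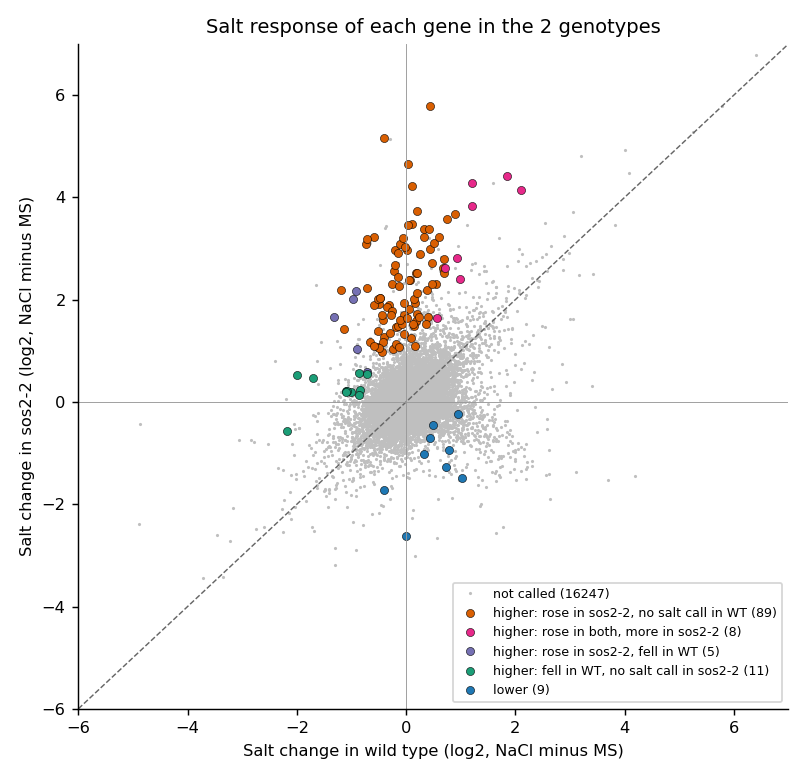
Fitted log2 salt change of each of 16369 nuclear genes in wild type (x axis) and in sos2-2 (y axis), where the dashed line marks equal changes. Coloured points are the 122 genes with a called interaction, grouped by which genotype had a salt call, and most of the 113 higher genes lie above the line near 0 on the wild-type axis.

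Seen by medium, the 113 genes differed between the genotypes after salt and mostly not before it. Over all tested genes, 1071 (6.54%) were higher and 573 (3.50%) lower in sos2-2 than in wild type in NaCl. On MS the counts were 988 higher (6.04%) and 635 lower (3.88%). The 31 of the 113 that passed the filter only through the salt-treated mutant had to be high in that group. Of the 113 genes, 110 were called higher in sos2-2 in NaCl. On MS 102 had no genotype call, 8 were lower in sos2-2 and 3 were higher. These contrasts share libraries with the interaction, so they describe the 113 genes and add no separate evidence.

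The number of genes called depended on single libraries. The fits below each left out 1 library but kept the same tested genes, so they do not undo the filter. The 31 genes that passed it only through the salt-treated mutant stayed among those tested. They include AT2G38823, AT3G54530, AT4G21250 and ABR1, which are among the 15 genes called in every fit. Leaving out WT_100N replicate 1, the library that stood apart, raised the counts to 589 higher and 986 lower, and all 113 and all 9 genes were among them. Without any other single library the counts were smaller or close to those over all 11. They were 84 higher and 1 lower without WT_MS replicate 1, 56 and 1 without WT_MS replicate 2, and 48 and 1 without WT_MS replicate 3. They were 63 and 0 without WT_100N replicate 2, and 59 and 1 without WT_100N replicate 3. For sos2-2_MS, which had only 2 libraries, they were 49 and 2 without replicate 1 and 19 and 0 without replicate 2, the lone library being assumed to vary like the other groups. For sos2-2_100N they were 76 and 14 without replicate 1, 122 and 5 without replicate 2, and 26 and 0 without replicate 3. Of the 113 genes, 15 were called in all 11 of these fits, 45 in at least 8, and 43 in 3 or fewer. The 9 lower genes were called in 1 to 6 of them.

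**Figure D2:**
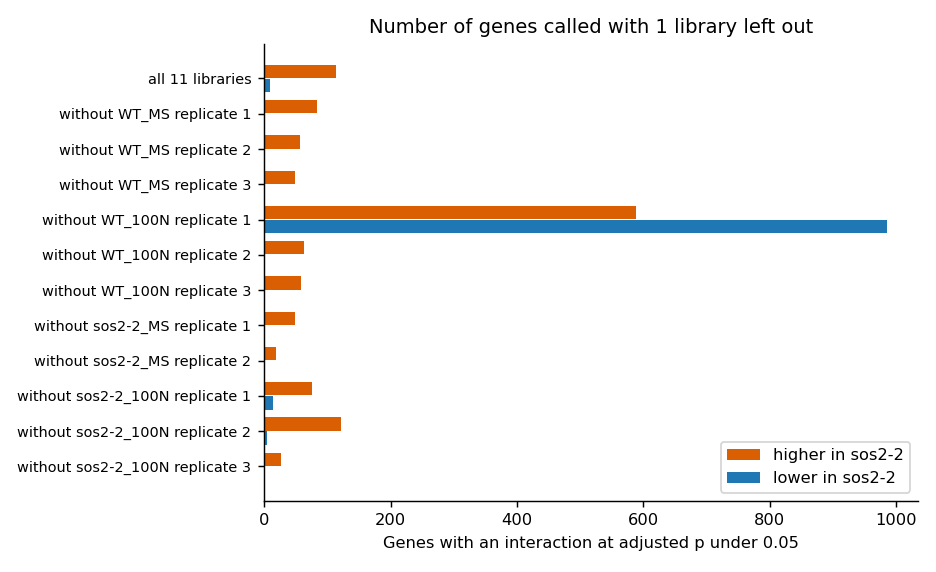
Number of genes with an interaction at adjusted p under 0.05 (x axis) over all 11 libraries and with each library left out in turn (y axis), for positive (higher) and negative (lower) interactions. The 2 bars without WT_100N replicate 1 reach 589 and 986, and every other bar lies at 122 or below.

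The 4 largest interactions of the genes whose signs made them larger rises belonged to little-studied genes that were close to silent outside the salt-treated mutant. All 4 (AT2G38823, AT5G24640, AT2G32020 and AT2G37805) are among the 31 genes that passed the filter only through that group, so their adjusted p-values are no support for a difference. AT2G38823 was measured at 2.38, 0.994 and 2.59 nuclear TPM in wild type on MS and at 4.33, 1.45 and 3.54 after salt. In sos2-2, AT2G38823 read 1.82 and 0.585 on MS and 168, 64.6 and 141 in NaCl. The 3 mutant libraries in NaCl stood far above the other 8, and replicate 2 was the lowest of the 3. For AT2G38823 the interaction came to 5.35 (SE 0.61, limma adjusted p = 0.00471), with salt changes of 0.43 in wild type and 5.79 in sos2-2. The call of AT2G38823 held in all 11 fits that left out 1 library (adjusted p = 0.00157 to 0.0382). AT2G38823 (chromosome 2, 16223997 to 16225507) is annotated as an uncharacterized protein.

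AT5G24640 (chromosome 5, 8436352 to 8436895) is an uncharacterized protein too. In nuclear TPM, AT5G24640 held 2.93, 0.641 and 0.596 in wild type on MS and 3.01, 0.645 and 0.647 in wild type in NaCl. For AT5G24640 the mutant gave 3.18 and 1.80 on MS and 156, 44.2 and 90.5 in NaCl. Again only the salt-treated mutant was high, with replicate 2 below the other two. AT5G24640 thus changed by 0.03 in wild type and by 4.66 in sos2-2, and its interaction was 4.63 (SE 0.76, limma adjusted p = 0.0208). AT5G24640 was called in 6 of the 11 fits with 1 library left out (adjusted p = 0.00579 to 0.141), those without WT_MS replicate 1, WT_MS replicate 2, WT_MS replicate 3, WT_100N replicate 1, sos2-2_100N replicate 1 or sos2-2_100N replicate 2.

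AT2G32020 (chromosome 2, 13630980 to 13631929) is annotated in the acyl-CoA N-acyltransferase superfamily, whose enzymes move acyl groups onto amines. For AT2G32020 the wild-type libraries read 2.595, 4.37 and 2.15 nuclear TPM on MS and 3.41, 2.13 and 4.56 in NaCl. Mutant levels of AT2G32020 were 2.603 and 2.75 on MS and 137, 27.8 and 79.6 after salt. The salt-treated mutant did not overlap the other groups. The interaction of AT2G32020 was 4.11 (SE 0.69, limma adjusted p = 0.0237), from salt changes of 0.11 in wild type and 4.22 in sos2-2. AT2G32020 was called in 5 of the 11 fits with 1 library left out (adjusted p = 0.00157 to 0.133), those without WT_MS replicate 1, WT_100N replicate 1, WT_100N replicate 3, sos2-2_100N replicate 1 or sos2-2_100N replicate 2.

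AT2G37805 (chromosome 2, 15842880 to 15843733) encodes a cysteine/histidine-rich C1 domain protein. AT2G37805 stood at 0.275, 0.2999 and 0 nuclear TPM in the wild type on MS and at 0.284, 0.927 and 0 in NaCl. In sos2-2, AT2G37805 read 0 and 0.291 on MS and 26.6, 6.72 and 15.5 in NaCl. It was listed at 0 or under 1 in every library except the 3 of sos2-2 in NaCl. On the log2 scale AT2G37805 changed with salt by 0.19 in wild type and 3.74 in sos2-2, an interaction of 3.55 (SE 0.64, limma adjusted p = 0.0299). AT2G37805 was called in 3 of the 11 fits with 1 library left out (adjusted p = 0.00725 to 0.134), those without WT_100N replicate 1, WT_100N replicate 2 or sos2-2_100N replicate 2. The pseudocount of 1 holds down the fitted change of genes this low.

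The largest interaction of all belonged to AT3G54530 (chromosome 3, 20185966 to 20187637), an uncharacterized protein that went up in sos2-2 while its fitted change in wild type was slightly below 0. It too passed the filter only through the salt-treated mutant, so its p is a description. AT3G54530 was measured at 2.68, 0.546 and 1.70 nuclear TPM in wild type on MS and at 1.90, 0.379 and 0.656 after salt. For AT3G54530 the mutant gave 1.11 and 0.179 on MS and 81.2, 28.9 and 71.0 in NaCl. All 3 salt-treated mutant libraries exceeded every other library. With log2 salt changes of -0.40 in wild type and 5.15 in sos2-2, AT3G54530 had an interaction of 5.56 (SE 0.67, limma adjusted p = 0.00561). The call of AT3G54530 held in all 11 fits that left out 1 library (adjusted p = 0.00174 to 0.0498).

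GSTU9 (AT5G62480, chromosome 5, 25088527 to 25089626), a tau-class glutathione S-transferase, is of an enzyme group that joins glutathione to reactive compounds. In nuclear TPM, GSTU9 held 8.30, 7.48 and 9.18 in wild type on MS and 6.85, 2.38 and 5.74 in wild type in NaCl. Mutant levels of GSTU9 were 9.25 and 8.07 on MS and 122, 52.9 and 100.5 after salt. On MS the genotypes overlapped, and in NaCl the mutant was high and the wild type low. For GSTU9 the interaction came to 3.91 (SE 0.50, limma adjusted p = 0.00728), with salt changes of -0.72 in wild type and 3.18 in sos2-2. Leaving out sos2-2_MS replicate 2 ended the call of GSTU9, which held in the other 10 of 11 such fits (adjusted p = 0.00174 to 0.0554).

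AT5G48430 (chromosome 5, 19627634 to 19629167), an aspartyl protease family member, followed the same course. For AT5G48430 the wild-type libraries read 4.69, 8.38 and 7.57 nuclear TPM on MS and 2.73, 4.74 and 3.63 in NaCl. Mutant libraries held AT5G48430 at 5.74 and 4.89 on MS and at 38.3, 63.9 and 58.3 in NaCl. Here replicate 1 was the lowest of the 3 high libraries. AT5G48430 thus changed by -0.73 in wild type and by 3.08 in sos2-2, and its interaction was 3.82 (SE 0.37, limma adjusted p = 0.00171). The call of AT5G48430 held in all 11 fits that left out 1 library (adjusted p = 0.00172 to 0.0151).

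AT4G21250 (chromosome 4, 11324987 to 11326958), of the sulfite exporter TauE/SafE family, averaged 0.136 deposited TPM outside the salt-treated mutant. It passed the filter only through that group, so its mean had to be higher there and its p supports nothing. AT4G21250 stood at 0.554, 1.08 and 0.449 nuclear TPM in the wild type on MS and at 0, 0 and 0.381 in NaCl. For AT4G21250 the mutant gave 1.22 and 0.119 on MS and 16.7, 13.002 and 11.8 in NaCl. Only the mutant in NaCl exceeded 2 nuclear TPM. The interaction of AT4G21250 was 3.81 (SE 0.46, limma adjusted p = 0.00561), from salt changes of -0.59 in wild type and 3.22 in sos2-2. The call of AT4G21250 held in all 11 fits that left out 1 library (adjusted p = 0.00537 to 0.0316).

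**Figure D3:**
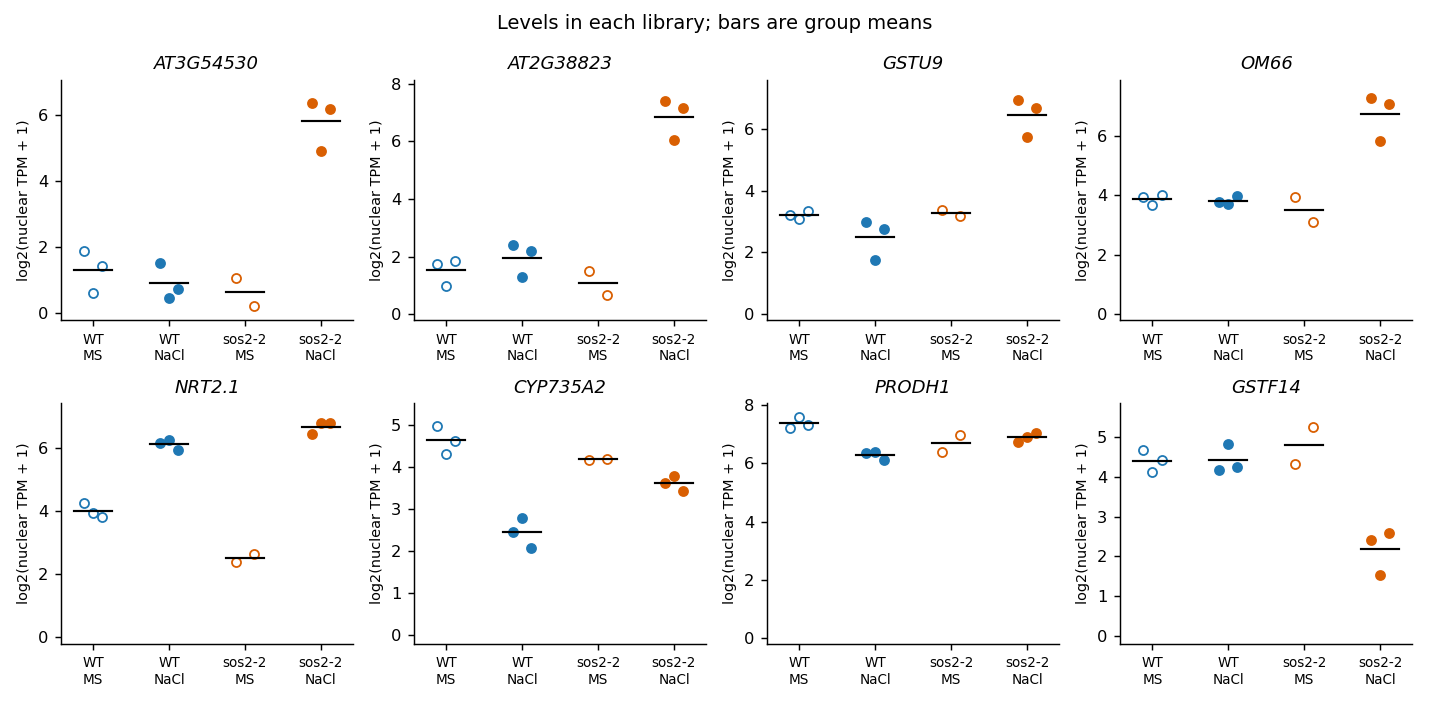
Level of 8 genes in each of the 11 libraries as log2(nuclear TPM + 1), with open points for MS, filled points for NaCl, blue for wild type, orange for sos2-2 and black bars for group means. AT3G54530, AT2G38823, GSTU9 and OM66 are high only in the salt-treated mutant, NRT2.1 rises in both genotypes from a lower level in sos2-2, CYP735A2 and PRODH1 are lowest in salt-treated wild type, and GSTF14 is low only in the salt-treated mutant.

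The 8 genes that rose in both genotypes and rose further in sos2-2 had median salt changes of 1.09 in wild type and 3.32 in sos2-2. They were AT4G37850, AT2G44340, CYP94B3, NRT2.1, AT5G38100, MYB74, AT1G72140 and NRT3.1. NRT2.1 and its partner NRT3.1 belong to the nitrate list described further on, and the other 6 are given here because they complete the group, after their values were seen. CYP94B3 (AT3G48520, chromosome 3, 17974853 to 17976774) encodes a cytochrome P450 that oxidises the active jasmonate, jasmonoyl-isoleucine, and so lowers it. CYP94B3 was measured at 2.03, 3.57 and 1.77 nuclear TPM in wild type on MS and at 12.1, 9.25 and 12.2 after salt. Mutant levels of CYP94B3 were 1.71 and 1.14 on MS and 62.4, 38.5 and 54.9 after salt. On MS both mutant libraries lay below the wild type, and in NaCl all mutant libraries lay above it. On the log2 scale CYP94B3 changed with salt by 1.85 in wild type and 4.43 in sos2-2, an interaction of 2.58 (SE 0.35, limma adjusted p = 0.00859). Leaving out sos2-2_MS replicate 2 ended the call of CYP94B3, which held in the other 10 of 11 such fits (adjusted p = 0.00423 to 0.0706). AT4G37850, a basic helix-loop-helix transcription factor gene, had salt changes of 1.204 and 4.28 and an interaction of 3.07 (SE 0.33, limma adjusted p = 0.00405). The call of AT4G37850 held in all 11 fits that left out 1 library (adjusted p = 0.00230 to 0.0229).

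In 11 of the 113 genes the positive interaction came from a fall in wild type with no salt call in sos2-2. Their median salt change was -1.08 in wild type and 0.21 in sos2-2. CYP735A2 (AT1G67110, chromosome 1, 25061673 to 25065446), which encodes the enzyme that hydroxylates cytokinins to trans-zeatin forms, was the only one that went down in both genotypes by sign. In nuclear TPM, CYP735A2 held 30.2, 18.8 and 23.4 in wild type on MS and 4.49, 5.91 and 3.22 in wild type in NaCl. Mutant libraries held CYP735A2 at 16.8 and 17.3 on MS and at 11.3, 12.8 and 9.78 in NaCl. None of the 4 groups overlapped, with the salt-treated wild type lowest, the salt-treated mutant next and the wild type on MS highest. With log2 salt changes of -2.19 in wild type and -0.56 in sos2-2, CYP735A2 had an interaction of 1.62 (SE 0.31, limma adjusted p = 0.0395). CYP735A2 was called in 3 of the 11 fits with 1 library left out (adjusted p = 0.0146 to 0.179), those without WT_MS replicate 2, WT_100N replicate 1 or WT_100N replicate 2.

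PRODH1 (AT3G30775, chromosome 3, 12448636 to 12451556), the proline dehydrogenase that starts proline breakdown, was another of the 11. For PRODH1 the wild-type libraries read 148, 191 and 158 nuclear TPM on MS and 80.3, 82.9 and 67.7 in NaCl. In sos2-2, PRODH1 read 83.6 and 126 on MS and 107, 119 and 132 in NaCl. The wild type on MS was highest and the salt-treated wild type lowest, while the mutant groups overlapped each other in between. For PRODH1 the interaction came to 1.301 (SE 0.25, limma adjusted p = 0.0407), with salt changes of -1.09 in wild type and 0.21 in sos2-2. PRODH1 was called in 1 of the 11 fits with 1 library left out (adjusted p = 0.0138 to 0.157), the fit without WT_100N replicate 1. The remaining members of this group, named after their values were seen, were AT5G39580 (a peroxidase), AT3G61400 (a 2-oxoglutarate oxygenase), ATL2 (a RING-type protein), AT3G54040, XTH18 (a xyloglucan hydrolase of the cell wall), AT2G43120, LYK4 (a LysM receptor kinase), AT1G52200 and MDHAR (a monodehydroascorbate reductase). Their interactions ranged from 1.01 for MDHAR to 2.51 for AT5G39580.

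The 9 genes with a negative interaction were fewer and were each called in at most 6 of the 11 fits with a library left out. Of these, 5 fell in sos2-2 with no call in wild type (GSTF14, AT1G11930, AT1G50450, CYP702A5 and AT3G59660), 3 fell in sos2-2 and rose in wild type (AT2G07626, AT2G43535 and AT2G07734), and 1, AT1G51405, rose in wild type with no call in sos2-2. On MS 7 of the 9 were called higher in sos2-2 than in wild type, and in NaCl 3 were called lower. GSTF14 (AT1G49860, chromosome 1, 18458526 to 18459969) is a phi-class glutathione S-transferase. GSTF14 stood at 24.8, 16.3 and 20.5 nuclear TPM in the wild type on MS and at 17.1, 27.5 and 17.9 in NaCl. Mutant levels of GSTF14 were 19.1 and 37.4 on MS and 4.36, 1.90 and 5.01 after salt. Only the salt-treated mutant was low, and the other 3 groups overlapped. GSTF14 thus changed by 0.01 in wild type and by -2.61 in sos2-2, and its interaction was -2.62 (SE 0.47, limma adjusted p = 0.0299). GSTF14 was called in 4 of the 11 fits with 1 library left out (adjusted p = 0.0104 to 0.187), those without WT_100N replicate 1, sos2-2_MS replicate 1, sos2-2_100N replicate 1 or sos2-2_100N replicate 2.

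AT2G43535 (chromosome 2, 18070960 to 18071826), a small knottin-type protein, started higher in the mutant. AT2G43535 was measured at 67.1, 63.1 and 64.2 nuclear TPM in wild type on MS and at 81.7, 131 and 134 after salt. Mutant libraries held AT2G43535 at 161 and 219 on MS and at 106, 105 and 81.5 in NaCl. The mutant on MS lay above all other groups, and in NaCl the genotypes overlapped. The interaction of AT2G43535 was -1.74 (SE 0.29, limma adjusted p = 0.0246), from salt changes of 0.79 in wild type and -0.95 in sos2-2. AT2G43535 was called in 4 of the 11 fits with 1 library left out (adjusted p = 0.00230 to 0.157), those without WT_100N replicate 1, sos2-2_MS replicate 1, sos2-2_100N replicate 1 or sos2-2_100N replicate 2. AT1G11930 (chromosome 1, 4028595 to 4030656), annotated as a putative pyridoxal phosphate-dependent enzyme, likewise read highest in the mutant on MS. In nuclear TPM, AT1G11930 held 4.91, 4.17 and 5.75 in wild type on MS and 7.13, 8.17 and 11.6 in wild type in NaCl. In sos2-2, AT1G11930 read 16.4 and 18.9 on MS and 10.3, 5.30 and 5.53 in NaCl. In NaCl the genotypes overlapped. On the log2 scale AT1G11930 changed with salt by 0.73 in wild type and -1.27 in sos2-2, an interaction of -1.996 (SE 0.36, limma adjusted p = 0.0299). AT1G11930 was called in 2 of the 11 fits with 1 library left out (adjusted p = 0.00958 to 0.184), those without WT_100N replicate 1 or sos2-2_100N replicate 1.

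CYP702A5 (AT4G15393, chromosome 4, 8804070 to 8807232), a cytochrome P450 gene, was the 1 gene that went down with salt in both genotypes by sign and further in sos2-2. For CYP702A5 the wild-type libraries read 36.3, 26.5 and 39.0 nuclear TPM on MS and 20.5, 27.9 and 26.9 in NaCl. For CYP702A5 the mutant gave 67.0 and 57.9 on MS and 16.7, 18.1 and 20.2 in NaCl. The mutant was highest on MS and lowest in NaCl. With log2 salt changes of -0.41 in wild type and -1.71 in sos2-2, CYP702A5 had an interaction of -1.3003 (SE 0.25, limma adjusted p = 0.0421). CYP702A5 was called in 1 of the 11 fits with 1 library left out (adjusted p = 0.00928 to 0.188), the fit without WT_100N replicate 1. AT2G07626 (chromosome 2, 3296472 to 3297016) and AT2G07734 lie in the stretch of chromosome 2 known to be a copy of mitochondrial DNA, so their reads may be shared with mitochondrial transcripts and their values are uncertain. AT2G07626 stood at 56.2, 50.3 and 62.9 nuclear TPM in the wild type on MS and at 76.0, 130.05 and 154 in NaCl. Mutant libraries held AT2G07626 at 120.1 and 138 on MS and at 61.8, 46.2 and 32.6 in NaCl. The salt-treated mutant overlapped the wild type on MS, and the other 2 groups were higher. For AT2G07626 the interaction came to -2.51 (SE 0.40, limma adjusted p = 0.0190), with salt changes of 1.02 in wild type and -1.49 in sos2-2. AT2G07626 was called in 6 of the 11 fits with 1 library left out (adjusted p = 0.00230 to 0.122), those without WT_MS replicate 1, WT_MS replicate 3, WT_100N replicate 1, WT_100N replicate 3, sos2-2_100N replicate 1 or sos2-2_100N replicate 2.

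Mitochondria that are disturbed signal to the nucleus, and in Arabidopsis the membrane-bound NAC transcription factors NAC013 and NAC017 are released and raise genes such as that of the alternative oxidase, an enzyme that passes electrons to oxygen around the later complexes of the respiratory chain. Of the 10 tested members of a list of such mitochondrial stress genes, 3 had a positive called interaction, against 0.690% of all tested genes, and none a negative one. The median interaction of the 10 was 1.296, the highest of the 19 lists used, and 9 of 10 values were above 0, against -0.01 and 49.1% over all tested genes. With salt 7 of the 10 rose in sos2-2, where 6.02% of all tested genes rose, and 2 in wild type, where 6.41% did. In NaCl 8 of the 10 were called higher in sos2-2, against 6.54% of all. The list was chosen with earlier results of these data known, among them that of AOX1A, so these counts are descriptions.

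AOX1A (AT3G22370, chromosome 3, 7906521 to 7908746) encodes the main alternative oxidase. AOX1A was measured at 9.21, 8.83 and 8.68 nuclear TPM in wild type on MS and at 21.0, 12.4 and 12.2 after salt. In sos2-2, AOX1A read 12.9 and 10.004 on MS and 92.6, 62.1 and 74.2 in NaCl. The salt-treated mutant was at least 62.1 and every other library at most 21.0, the latter in WT_100N replicate 1. AOX1A thus changed by 0.67 in wild type and by 2.62 in sos2-2, and its interaction was 1.96 (SE 0.31, limma adjusted p = 0.0192). AOX1A was called in 5 of the 11 fits with 1 library left out (adjusted p = 0.00230 to 0.133), those without WT_MS replicate 1, WT_100N replicate 1, WT_100N replicate 3, sos2-2_100N replicate 1 or sos2-2_100N replicate 2.

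OM66 (AT3G50930, chromosome 3, 18929526 to 18932181) encodes an AAA-type ATPase of the outer mitochondrial membrane. In nuclear TPM, OM66 held 14.5, 11.6 and 15.1 in wild type on MS and 12.7, 12.0 and 14.8 in wild type in NaCl. For OM66 the mutant gave 14.5 and 7.51 on MS and 155, 56.3 and 133 in NaCl. The other 3 groups overlapped and the salt-treated mutant stood above them, again with its replicate 2 lowest. The interaction of OM66 was 3.26 (SE 0.50, limma adjusted p = 0.0161), from salt changes of -0.05 in wild type and 3.21 in sos2-2. Leaving out WT_MS replicate 3, sos2-2_MS replicate 2 or sos2-2_100N replicate 3 ended the call of OM66, which held in the other 8 of 11 such fits (adjusted p = 0.00137 to 0.114). UGT74E2 (AT1G05680, chromosome 1, 1703002 to 1704838) encodes a glucosyltransferase that acts on the auxin indole-3-butyric acid. For UGT74E2 the wild-type libraries read 5.60, 4.21 and 4.91 nuclear TPM on MS and 7.64, 6.001 and 7.29 in NaCl. Mutant levels of UGT74E2 were 9.53 and 4.97 on MS and 88.4, 35.6 and 74.2 after salt. The salt-treated mutant again stood above the other 8 libraries. On the log2 scale UGT74E2 changed with salt by 0.43 in wild type and 2.98 in sos2-2, an interaction of 2.55 (SE 0.46, limma adjusted p = 0.0294). UGT74E2 was called in 3 of the 11 fits with 1 library left out (adjusted p = 0.00303 to 0.186), those without WT_100N replicate 1, sos2-2_MS replicate 1 or sos2-2_100N replicate 2.

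The uncalled members, named here to complete the list, split into those with large values and those near 0. AT2G21640 had an interaction of 1.91 (SE 0.43, limma adjusted p = 0.0848) and AT5G51440 one of 2.13 (SE 0.56, limma adjusted p = 0.153). NDB2, an external NADH dehydrogenase, rose with salt by 0.94 in wild type and 1.62 in sos2-2, and its interaction was 0.68 (SE 0.24, limma adjusted p = 0.240). NAC013 rose by 1.41 and 1.75, with an interaction of 0.34 (SE 0.40, limma adjusted p = 0.705) and an unadjusted 95% interval of -0.53 to 1.21. NAC017 showed salt changes of 0.20 and 0.11, neither called, and an interaction of -0.09 (SE 0.16, limma adjusted p = 0.807) with an interval of -0.44 to 0.25. NDA2 and DIC2 had interactions of 0.11 and 0.05.

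**Figure D4:**
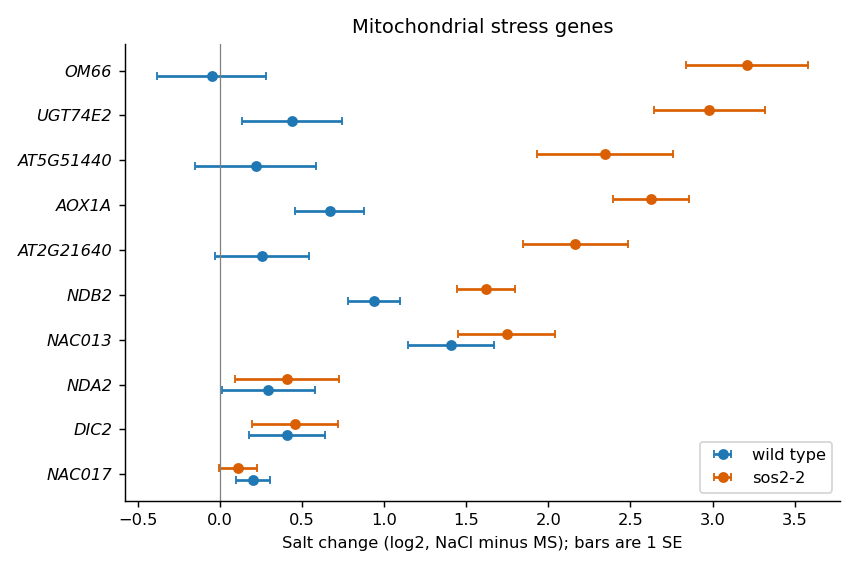
Fitted log2 salt change (x axis) of the 10 tested mitochondrial stress genes (y axis) in wild type and sos2-2, with bars of 1 SE. The top 5 genes changed by 0.67 or less in wild type and by 2.16 or more in sos2-2, and in the lower 4 the 2 changes differed by 0.34 or less.

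The DNA element through which NAC013 and its relatives are known to act, the mitochondrial dysfunction motif, has the letters CTTGNNNNNCAAG or CTTGNNNNNCACG. It was looked for on both strands of the 500 bases before the annotated start of each gene. It was present for 260 of 16368 tested genes with such a window (1.59%) and for 11 of the 113 genes with a positive interaction (9.73%), and for none of the 9 with a negative one. AT2G38823 and AT5G24640, with the largest interactions of their class, were among the 11, of which 7 had passed the filter only through the salt-treated mutant, while AOX1A, OM66 and UGT74E2 had no match to these letters in this window. The 11 genes carried 12 matches, 2 of them in front of AT4G12735. They are all the matches found in front of the 113 genes and are shown so that the letters between the fixed ends can be compared, each with 8 bases on either side, read 5′ to 3′ on the strand of the gene from the TAIR10.1 genome of RefSeq, with the match in capitals. In AT2G38823 and AT5G54100 the letters run on the opposite strand, so that the printed strand begins with CGTG.
ABCB11 (chr1:523441-523469, plus strand): ccactctcCTTGCTTCTCAAGcaattatc
AT1G76600 (chr1:28746686-28746714, plus strand): atattggcCTTGTAAAACAAGactactct
AT2G38823 (chr2:16223910-16223938, plus strand): taccttggCGTGGGGAGCAAGatcctcgt
NAC044 (chr3:229002-229030, plus strand): gtatctggCTTGGGGAGCAAGgttagcgg
AT3G13600 (chr3:4444158-4444186, plus strand): tattataaCTTGTCAGTCACGcgttcccg
CRF6 (chr3:22804692-22804720, plus strand): aaaagttgCTTGGAGACCAAGctatagat
AT4G08555 (chr4:5447922-5447950, plus strand): atcaatccCTTGGTTTCCAAGcaaatata
AT4G12735 (chr4:7494395-7494423, minus strand): caaaagtcCTTGAACTTCACGtacgaaga
AT4G12735 (chr4:7494323-7494351, minus strand): ttattaagCTTGGCCGCCAAGttataatg
CYP81D8 (chr4:17571863-17571891, minus strand): caaactttCTTGAGGAACAAGacttgact
AT5G24640 (chr5:8436264-8436292, plus strand): attaatttCTTGGTGGACAAGcatgtttg
AT5G54100 (chr5:21956677-21956705, minus strand): tacaaattCGTGATAAGCAAGaaaaacaa

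Of these 11 genes, ABCB11 encodes an auxin-transporting ABC protein, CRF6 a cytokinin response factor, NAC044 a NAC transcription factor, CYP81D8 a cytochrome P450, AT3G13600 a calmodulin-binding protein and AT5G54100 a protein of the SPFH/Band 7 domain family. Named after their values were seen, ABCB11 had an interaction of 3.38 (SE 0.48, limma adjusted p = 0.0120), CYP81D8 one of 2.64 (SE 0.50, limma adjusted p = 0.0395) and CRF6 one of 2.202 (SE 0.29, limma adjusted p = 0.00761). CYP81D8 was called in 3 of the 11 fits with 1 library left out (adjusted p = 0.00441 to 0.233), those without WT_100N replicate 1, sos2-2_100N replicate 1 or sos2-2_100N replicate 2. Leaving out sos2-2_MS replicate 2 or sos2-2_100N replicate 3 ended the call of ABCB11, which held in the other 9 of 11 such fits (adjusted p = 0.00137 to 0.0884). Leaving out sos2-2_MS replicate 2 ended the call of CRF6, which held in the other 10 of 11 such fits (adjusted p = 0.00172 to 0.0609). ABCB11 and CYP81D8 are among the 31 genes that passed the filter only through the salt-treated mutant. CRF6 stood between 27.1 and 30.8 nuclear TPM in the salt-treated mutant and at 8.70 or less in the other 8 libraries. The distance from the first base of the match to the annotated gene start ranged from 65 bases for NAC044 to 388 for AT3G13600.

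Shorter elements were each found in a larger share of all windows. TTGAC, the core of the W-box bound by WRKY factors, was in 83.2% of the 113 windows and 66.8% of all. ACGTG, the core of the ABA-responsive element, was in 47.8% against 35.7%, and TGACG, an element bound by TGA factors, in 44.2% against 32.7%. Because TTGAC and TGACG share letters, 1 stretch can count for both. CCGAC, the core of the dehydration-responsive element, was in 20.4% against 23.1%, and GCCGCC, the GCC box of ethylene response factors, in 3.54% against 4.41%. In the windows of the 9 lower genes TTGAC was in 100%, ACGTG in 33.3%, TGACG and CCGAC each in 11.1%, and GCCGCC in none. The 113 include the 31 genes that passed the filter only through the salt-treated mutant. These shares describe letters in a window and no binding was measured.

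Glutathione S-transferases are detoxifying enzymes. The list held mostly tau-class genes and left out GSTF14, the lower gene described above. Of its 19 tested genes, 2 were called higher, GSTU9 and GSTU22, against 0.690% of all tested genes, and none lower, and the median interaction was 0.45 with 15 of 19 above 0. Over all 37 tested genes annotated as glutathione S-transferases 2 were called higher and 1 lower, and the median was 0.04. In sos2-2 7 of the 19 rose with salt and none fell, and in wild type 3 rose and 1 fell. Over all tested genes 6.02% rose and 2.69% fell in sos2-2, and 6.41% rose and 3.41% fell in wild type. GSTU22 stood at 1.62, 0.659 and 1.64 nuclear TPM in the wild type on MS and at 2.50, 2.05 and 1.84 in NaCl. In sos2-2, GSTU22 read 2.23 and 3.01 on MS and 16.7, 15.9 and 17.405 in NaCl. All 3 salt-treated mutant libraries were above all others, and GSTU22 passed the filter only through them, so its p is a description. With log2 salt changes of 0.47 in wild type and 2.30 in sos2-2, GSTU22 had an interaction of 1.83 (SE 0.32, limma adjusted p = 0.0286). GSTU22 was called in 2 of the 11 fits with 1 library left out (adjusted p = 0.0104 to 0.124), those without WT_MS replicate 2 or WT_100N replicate 1. GSTU25, added after its values were seen and a close relative of GSTU24 that can share reads with it, had an interaction of 2.11 (SE 0.43, limma adjusted p = 0.0537) and was not called.

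Of 13 tested genes for reactive oxygen production and removal, none was called, although 12 of 13 values were above 0 and the median was 0.51. Over all tested genes 0.690% were called higher and 0.0550% lower. An unadjusted p under 0.05 was reached by 3 of the 13. ZAT12 (AT5G59820, chromosome 5, 24102814 to 24103794), a zinc-finger repressor that responds to hydrogen peroxide, had the smallest adjusted p. ZAT12 was measured at 5.19, 6.39 and 5.95 nuclear TPM in wild type on MS and at 8.61, 8.40 and 6.41 after salt. For ZAT12 the mutant gave 13.2 and 9.11 on MS and 56.8, 31.9 and 43.4 in NaCl. The salt-treated mutant was highest and did not overlap the rest, and the mutant on MS was above all wild-type libraries. For ZAT12 the interaction came to 1.51 (SE 0.32, limma adjusted p = 0.0617), with salt changes of 0.36 in wild type and 1.87 in sos2-2. It missed the threshold over all 11 libraries, and without WT_100N replicate 1 the value was 1.58 (adjusted p = 0.0170).

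Nitrate genes had the most calls of the 3 nutrient lists. Of 12 tested members of the nitrate list 3 were called higher, NPF7.2, NRT2.1 and NRT3.1, against 0.690% of all tested genes, and none lower, with a median interaction of 0.31. The list was chosen with earlier results of these data known, among them that of NRT2.1, so the count is a description. NRT2.1 (AT1G08090, chromosome 1, 2524023 to 2526322) encodes the main high-affinity nitrate transporter of the root, which works in a complex with the NRT3.1 protein. In nuclear TPM, NRT2.1 held 17.9, 14.3 and 13.1 in wild type on MS and 69.6, 74.4 and 59.5 in wild type in NaCl. Mutant levels of NRT2.1 were 4.23 and 5.23 on MS and 84.4, 108 and 109 after salt. No group overlapped another, and the mutant was lowest on MS and highest in NaCl. NRT2.1 thus changed by 2.1002 in wild type and by 4.14 in sos2-2, and its interaction was 2.04 (SE 0.23, limma adjusted p = 0.00471). The call of NRT2.1 held in all 11 fits that left out 1 library (adjusted p = 0.00348 to 0.0237). The neighbouring and closely related NRT2.2 was listed at 0 in all 11 libraries, so the split of reads between the pair is uncertain.

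NRT3.1 (AT5G50200, chromosome 5, 20436180 to 20437815) followed its partner at a higher level. For NRT3.1 the wild-type libraries read 153, 156 and 152 nuclear TPM on MS and 209, 242 and 232 in NaCl. Mutant libraries held NRT3.1 at 89.7 and 74.8 on MS and at 232, 244 and 298 in NaCl. On MS the mutant was below the wild type in every library, and in NaCl the genotypes overlapped. The interaction of NRT3.1 was 1.07 (SE 0.19, limma adjusted p = 0.0286), from salt changes of 0.56 in wild type and 1.63 in sos2-2. NRT3.1 was called in 3 of the 11 fits with 1 library left out (adjusted p = 0.0114 to 0.175), those without WT_100N replicate 1, sos2-2_100N replicate 1 or sos2-2_100N replicate 2. NPF7.2 (AT4G21680, chromosome 4, 11517353 to 11519805), also known as NRT1.8, encodes a transporter that takes nitrate back out of the xylem in roots. NPF7.2 stood at 5.59, 5.16 and 5.24 nuclear TPM in the wild type on MS and at 10.5, 10.6 and 8.06 in NaCl. For NPF7.2 the mutant gave 9.78 and 3.68 on MS and 73.2, 94.0 and 86.6 in NaCl. The salt-treated mutant stood above the other 8 libraries. On the log2 scale NPF7.2 changed with salt by 0.76 in wild type and 3.58 in sos2-2, an interaction of 2.83 (SE 0.38, limma adjusted p = 0.00799). The call of NPF7.2 held in all 11 fits that left out 1 library (adjusted p = 0.000840 to 0.0414). NPF7.2 overlaps a gene on the opposite strand in the annotation, and whether the counting used strand is not stated in the labels.

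The phosphate list had 8 tested members and a median of 0.31, with 1 called higher, against 0.690% of all tested genes. It was PHT1;1 (AT5G43350, chromosome 5, 17399769 to 17402158), a phosphate uptake transporter of the root. Its result was known from earlier work on these data when the list was chosen, so the count is a description. PHT1;1 was measured at 52.6, 48.7 and 49.6 nuclear TPM in wild type on MS and at 60.7, 75.4 and 59.0 after salt. Mutant levels of PHT1;1 were 44.0 and 44.7 on MS and 106, 156 and 133 after salt. The salt-treated mutant was higher than every other library. With log2 salt changes of 0.36 in wild type and 1.53 in sos2-2, PHT1;1 had an interaction of 1.18 (SE 0.22, limma adjusted p = 0.0386). PHT1;1 was called in 3 of the 11 fits with 1 library left out (adjusted p = 0.0151 to 0.179), those without WT_100N replicate 1, WT_100N replicate 2 or sos2-2_100N replicate 1. Its near-identical relative PHT1;2 was listed at no more than 0.246 deposited TPM, so the split between the pair is uncertain. Among 11 sulfate genes none was called, against 0.690% higher and 0.0550% lower over all tested genes, and the median was -0.18. LSU2, a small protein gene induced by low sulfur, had the smallest adjusted p there, with an interaction of -1.39 (SE 0.64, limma adjusted p = 0.313). WT_100N replicate 1, at 55.5 nuclear TPM against 191 and 196 in the others of its group, was among the libraries that moved this value, which was -1.99 (adjusted p = 0.0116) without it. It was -1.88 (adjusted p = 0.342) without sos2-2_MS replicate 1 and -0.90 (adjusted p = 0.633) without sos2-2_MS replicate 2, and -0.86 with TPM as deposited.

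Genes of the abscisic acid (ABA) and dehydration response rose with salt in both genotypes. Of 24 tested ABA and dehydration genes 21 rose with salt in wild type, where 6.41% of all tested genes rose. In sos2-2 19 rose, where 6.02% of all did, and none fell in either genotype. Only CYP707A1 had a called interaction, a positive one, against 0.690% of all tested genes. The median of the list was 0.24 with 13 of 24 above 0. Without WT_100N replicate 1, 2 members were called higher and 3 lower, against 589 and 986 of 16369 tested genes. The salt changes of KIN1, a cold- and ABA-induced gene chosen after its values were seen, were 4.07 and 4.47, and its interaction was 0.40 (SE 0.49, limma adjusted p = 0.719) with an unadjusted 95% interval of -0.67 to 1.47. That interval includes a difference of 1 log2 unit in the positive direction.

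CYP707A1 (AT4G19230, chromosome 4, 10521259 to 10523961) encodes an ABA 8′-hydroxylase, which breaks ABA down. In nuclear TPM, CYP707A1 held 4.34, 8.54 and 7.04 in wild type on MS and 10.07, 10.9 and 12.4 in wild type in NaCl. Mutant libraries held CYP707A1 at 4.03 and 2.71 on MS and at 20.8, 20.8 and 31.6 in NaCl. The salt-treated mutant was highest, with no overlap, and the salt-treated wild type lay above both MS groups. For CYP707A1 the interaction came to 1.83 (SE 0.35, limma adjusted p = 0.0407), with salt changes of 0.70 in wild type and 2.53 in sos2-2. CYP707A1 was called in 2 of the 11 fits with 1 library left out (adjusted p = 0.0173 to 0.248), those without WT_MS replicate 1 or WT_100N replicate 1. The related CYP707A3, chosen after its values were seen, had the larger value of 3.15 (SE 0.63, limma adjusted p = 0.0513) and missed the threshold.

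The 15 tested genes of the SOS pathway and ion transport had no called interaction, a median of -0.10 and a range of -0.74 to 0.19, the lowest being SOS2. Over all tested genes 0.690% were called higher and 0.0550% lower. SOS1, the sodium exporter, had an interaction of -0.10 (SE 0.21, limma adjusted p = 0.853) with an interval of -0.57 to 0.37. Of 9 osmolyte genes PRODH1 alone was called, with a positive value, against 0.690% of all tested genes, and the median was -0.02. P5CS1, the enzyme that makes proline, named after its values were seen, changed with salt by 2.58 in wild type and 2.55 in sos2-2.

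Over all 11 libraries, 13 lists had no called member in either direction. They were reactive oxygen, SOS and ion transport, photosynthesis, root, cell cycle, jasmonate, ethylene, sulfate, defence, heat shock, flavonoid, clock and small RNA machinery. Over all tested genes 0.690% were called higher and 0.0550% lower. In lists of 5 to 22 tested genes no call is near these shares, so it is no result about a list. The absence of calls also depended on WT_100N replicate 1. Without it, 1 member each was called higher in the reactive oxygen, photosynthesis, jasmonate and defence lists. Called lower were 1 member each in the root, ethylene, sulfate and flavonoid lists and 2 in small RNA machinery. Over all 16369 tested genes the counts were then 589 higher and 986 lower.

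**Figure D5:**
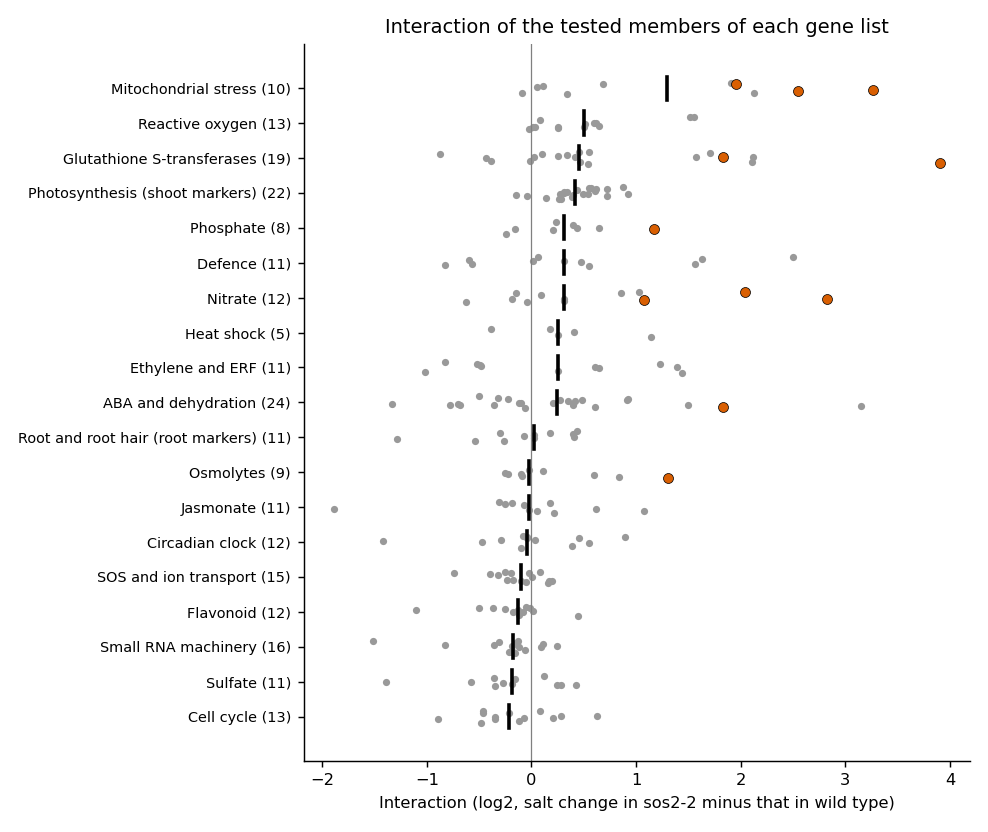
Interaction (x axis, log2) of every tested member of the 19 gene lists (y axis, number tested in brackets), with called members in orange, uncalled members in grey and the list median as a black bar. The mitochondrial stress list has the highest median, 1.296, and the cell cycle list the lowest, -0.21.

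Markers of shoot and root were both present, as the whole-seedling label implies. Photosynthesis genes, which mark the shoot, had a median of 0.41 with 20 of 22 values above 0. Their summed level was 74259 to 82564 nuclear TPM in wild type on MS, 42728 to 54511 in wild type in NaCl, 48600 to 58620 in sos2-2 on MS and 41326 to 55015 in sos2-2 in NaCl. The sum thus went down in wild type without overlap, and in the mutant the groups overlapped. RBCS1A, a small subunit gene of Rubisco, had the smallest adjusted p, with an interaction of 0.92 (SE 0.34, limma adjusted p = 0.250). The 11 root markers had a median of 0.03, and their summed level was 2382 to 2926, 3109 to 3623, 2142 to 2497 and 1822 to 2307 in the same order of groups. The root sum was highest in salt-treated wild type without overlap. The mutant groups overlapped each other, with the lowest library in the salt-treated mutant. PYK10, a beta-glucosidase of root ER bodies, had the smallest adjusted p among them, with -0.54 (SE 0.22, limma adjusted p = 0.267). The part that these shoot and root levels play in the 113 positive interactions was not tested.

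Cell cycle genes had a median of -0.21 over 13 members. CYCB1;4, a mitotic cyclin, had an interaction of -0.89 (SE 0.29, limma adjusted p = 0.228) and fell by 0.99 in sos2-2 (limma adjusted p = 0.0169). The 11 jasmonate genes had a median of -0.03. JAZ1, a repressor of jasmonate signalling, had 1.08 (SE 0.23, limma adjusted p = 0.0626) and rose with salt in sos2-2 by 1.13. JAZ1 passed the threshold without WT_100N replicate 1 (1.05, limma adjusted p = 0.0222) and with median centring (1.11, limma adjusted p = 0.0436). With a replicate block it did not (1.06, limma adjusted p = 0.102). PDF1.2A, a defensin gene raised by jasmonate and ethylene together, fell by 3.19 in sos2-2 (limma adjusted p = 0.00727) and changed by -1.2996 in wild type without a call, and its interaction was -1.89 (SE 0.80, limma adjusted p = 0.286). For PDF1.2A the wild-type libraries read 34.8, 10.8 and 20.101 nuclear TPM on MS and 10.2, 6.90 and 5.78 in NaCl. In sos2-2, PDF1.2A read 31.2 and 40.8 on MS and 9.22, 0.926 and 2.32 in NaCl. Every MS library was above every NaCl library, the closest being 10.8 and 10.2 in wild type.

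Ethylene and ERF genes had a median of 0.25 over 11 members, with ACS6, an enzyme of ethylene synthesis, at 1.23 (SE 0.40, limma adjusted p = 0.226). Defence genes had a median of 0.31 over 11 members. PAD3, the last enzyme of camalexin synthesis, fell by 1.12 with salt in wild type and changed by 0.44 in sos2-2, an interaction of 1.56 (SE 0.37, limma adjusted p = 0.103), and without WT_100N replicate 1 it was 1.67 (adjusted p = 0.0224). Heat shock genes had a median of 0.26 over 5 members, the lowest p being that of the heat shock factor gene HSFB2A at 1.14 (SE 0.47, limma adjusted p = 0.281).

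Of 12 flavonoid genes 8 rose in wild type and 7 in sos2-2, against 6.41% and 6.02% of all tested genes. Their median interaction was -0.12. MYB111, a regulator of flavonol synthesis, had -1.11 (SE 0.40, limma adjusted p = 0.245), with -1.40 (adjusted p = 0.0224) without WT_100N replicate 1 and -0.53 with TPM as deposited. Clock genes had a median of -0.04 over 12 members, with PRR9, a morning-phase repressor, at 0.89 (SE 0.35, limma adjusted p = 0.262). Small RNA machinery had a median of -0.17 over 16 members and 3 values above 0. DCL1, the dicer that cuts miRNA precursors, had the smallest adjusted p, with an interaction of -1.51 (SE 0.43, limma adjusted p = 0.197). DCL1 stood at 9.20, 6.75 and 8.80 nuclear TPM in the wild type on MS and at 9.86, 19.7 and 24.0 in NaCl. Mutant levels of DCL1 were 21.2 and 20.0 on MS and 19.2, 10.8 and 12.2 after salt. WT_100N replicate 1 lay just above the wild-type MS range and the others of its group were higher, and without it the DCL1 value was -1.87 (adjusted p = 0.00932). It was -0.97 (adjusted p = 0.155) with each library's purine and length trend removed and -0.88 with TPM as deposited. DCL1 overlaps annotated genes on the opposite strand, and whether strand was used in counting is not stated.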

How the data were processed

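The authors deposited TPM for 48359 transcripts in 11 mRNA libraries. The submitters' processing notes name kallisto 0.46.2, sleuth 0.30.0 and the build TAIR10, without their roles. The small RNA table was not used. Columns were matched to samples by name. TPM were summed to 27655 genes, of which 27445 nuclear genes all matched TAIR10.1 RefSeq loci, the source of symbols, coordinates and promoter windows. Nuclear TPM were rescaled to 1000000 per library, because plastid transcripts took a varying share. Genes with a mean of at least 1 deposited TPM were tested on log2(nuclear TPM + 1) with limma 3.58.1 (R 4.3.3), with an intensity trend, 1 mean per group over all 4 groups, 5 contrasts, and Benjamini-Hochberg adjustment over 16369 genes at 0.05, two-sided. The words rose and fell refer to called changes. The pseudocount understates the change of low genes.

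The comparison, the 19 gene lists and the rule for named genes were chosen with earlier results of these data known. The rule named SOS2, SE, NRT2.1, AOX1A, PHT1;1 and PDF1.2A, the 4 largest called interactions in each class of signs, and in each list the 2 largest called members or else the 1 with the smallest adjusted p. Other names were chosen after their values were seen and are said to be so. The fit was tested on simulated data. Alternatives changed the scaling, pseudocount, filter, weights, composition trend, replicate block and libraries used.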

Additional observations from a re-analysis of the deposited data

Results flagged for a closer look

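By the interaction test, 113 genes were called with a positive value and 9 with a negative one. Of the 113, 31 passed the filter only through the salt-treated mutant, so their p-values are descriptions and no support for a difference. The named genes AT2G38823, AT5G24640, AT2G32020, AT2G37805, AT3G54530, AT4G21250 and GSTU22 are among these 31. Among the genes named by rule, all limma adjusted p under 0.05 (given above), the interaction was 5.35 for AT2G38823, 4.63 for AT5G24640, 4.11 for AT2G32020 and 3.55 for AT2G37805. It was 5.56 for AT3G54530, 3.91 for GSTU9, 3.82 for AT5G48430, 3.81 for AT4G21250 and 1.62 for CYP735A2. Negative values were -2.62 for GSTF14, -2.51 for AT2G07626, -1.996 for AT1G11930, -1.74 for AT2G43535 and -1.30 for CYP702A5. In the gene lists it was 1.83 for CYP707A1, 1.301 for PRODH1, 3.26 for OM66, 2.55 for UGT74E2, 1.96 for AOX1A, 1.83 for GSTU22, 2.83 for NPF7.2, 2.04 for NRT2.1 and 1.18 for PHT1;1.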

How the results depend on the processing

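Against 113 higher and 9 lower genes, of which 49 were larger rises and 1 a smaller fall, other settings gave other counts. TPM as deposited, whose median interaction over all genes was 0.39, gave 338 higher, with 78 larger rises and 10 smaller falls. A mean of at least 5 TPM gave 56 and 4, with 27 and 0, from 8300 tested genes. Array weights gave 565 and 876, with 148 and 33. Removing each library's purine and length trend gave 16 lower and 2 smaller falls, median centring 2 smaller falls and no filter 0. With a replicate block the counts were 60 and 0, with 24 larger rises and 0 smaller falls. Same-numbered libraries did not deviate together in every pair (for wild type on MS and in NaCl r = 0.074, -0.061 and 0.282), so the numbers were not taken as pairs. Leaving out 1 library gave 19 to 589 higher, 0 to 986 lower, 8 to 124 larger rises and 0 to 49 smaller falls. Chosen after seeing the data, the trend removal without WT_100N replicate 1 gave 460 and 574, with 85 and 28. The cause of these shifts was not tested. None of the 38 named genes changed sign under any setting run. The 23 called ones kept their call in 355 results and lost it in 144, and the 15 uncalled ones passed the threshold in 30 of their results. TPM carry no depth, so the limit that depth sets is unknown.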

Other observations

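The 113 genes called higher over all 11 libraries can be counted by annotated gene family. The families were picked after the called genes were seen and no test was run, so their counts are descriptions, beside the 0.690% called higher over all genes. Of 46 tested WRKY genes, which encode transcription factors of stress and defence, 7 were called higher and none lower (WRKY72, WRKY29, WRKY40, WRKY61, WRKY11, WRKY36 and WRKY17), and the family median was 0.48. WRKY72 was high only in the salt-treated mutant. WRKY72 was measured at 16.4, 22.4 and 19.6 nuclear TPM in wild type on MS and at 14.0, 12.95 and 13.8 after salt. Mutant libraries held WRKY72 at 15.5 and 15.9 on MS and at 65.2, 57.7 and 79.8 in NaCl. WRKY72 thus changed by -0.48 in wild type and by 2.03 in sos2-2, and its interaction was 2.50 (SE 0.22, limma adjusted p = 0.000927). The call of WRKY72 held in all 11 fits that left out 1 library (adjusted p = 0.00137 to 0.00841). WRKY40, which represses ABA-responsive genes, had an interaction of 1.77 (SE 0.35, limma adjusted p = 0.0486). WRKY40 was called in 2 of the 11 fits with 1 library left out (adjusted p = 0.00955 to 0.267), those without WT_100N replicate 1 or sos2-2_100N replicate 2. Of 49 tested NAC transcription factor genes 4 were called higher (NAC044, NAC053, ATAF2 and ANAC087). Genes for C1 domain proteins, whose role in plants is little known, had 7 of 30 called higher, and genes for VQ motif proteins, which bind WRKY factors, 4 of 18. Of these, 5 of the 7 and 3 of the 4 passed the filter only through the salt-treated mutant. Cytochrome P450 genes had 8 of 113 tested members higher and 1 lower, with a family median of 0.04. Laccases had 2 of 13 higher, 2-oxoglutarate oxygenases 3 of 56, and glutathione S-transferases 2 of 37 higher and 1 lower. In each of these 3 families, and among the NAC and cytochrome P450 genes, 1 of the genes called higher had passed the filter only through the salt-treated mutant. None of the 7 WRKY genes had.

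A further 5 of the 113 genes, ACS7, SOT12, ABR1, BRU6 and MYB15, were picked singly after their values were seen and stand for no group. ACS7, an enzyme of ethylene synthesis, stood at 39.9 to 71.0 nuclear TPM in the salt-treated mutant and at 14.4 or less in the other libraries, with an interaction of 2.53 (SE 0.33, limma adjusted p = 0.00784). Leaving out sos2-2_MS replicate 2 ended the call of ACS7, which held in the other 10 of 11 such fits (adjusted p = 0.00402 to 0.0650). The sulfotransferase gene SOT12 went from 24.8 and 16.7 in the mutant on MS to 268, 152 and 269 in NaCl, against 28.4 to 44.5 in salt-treated wild type, with an interaction of 3.06 (SE 0.36, limma adjusted p = 0.00480). The call of SOT12 held in all 11 fits that left out 1 library (adjusted p = 0.00137 to 0.0389). ABR1, an ERF-type factor that represses ABA responses, had 3.43 (SE 0.47, limma adjusted p = 0.00867), although ABR1 overlaps a gene on the opposite strand and passed the filter only through the salt-treated mutant. BRU6, an auxin-conjugating GH3 gene, had 2.59 (SE 0.29, limma adjusted p = 0.00415), and the stress factor gene MYB15 had 2.52 (SE 0.38, limma adjusted p = 0.0161). Leaving out WT_MS replicate 3, sos2-2_MS replicate 2 or sos2-2_100N replicate 3 ended the call of MYB15, which held in the other 8 of 11 such fits (adjusted p = 0.00725 to 0.104). Of all 122 called genes 18 overlap an annotated gene on the opposite strand and are uncertain to that extent.

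The larger set called without WT_100N replicate 1 differed in makeup from the 113. Its 986 lower genes had a median transcript length of 2128 bases and a median purine share of 54.2%, and its 589 higher genes had 1373 bases and 49.0%. Over all tested genes the medians were 1734 bases and 50.7%, and over the 113 genes they were 1593 bases and 50.4%. The 9 genes called lower over all 11 libraries had medians of 1388 bases and 53.65%, a purine share near that of the 986. The part of transcript composition in these calls was not tested.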
